A study of Mus musculus with 17 samples.

Results

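H3K27ac, acetylation of lysine 27 on histone H3, was compared between CD8 T cells lacking the transcription factors Tcf1 and Lef1 and wild-type CD8 T cells. The comparison used every H3K27ac island of both cell groups, an island being a stretch of the genome in which a library had enough reads to be called enriched. There were 29636 islands in the deficient cells and 56985 in the wild-type cells, 86621 of the 346699 histone islands of the series. Islands that shared at least 1 bp were merged, which gave 74492 regions.

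The deficient cells (DKO CD8) came from Tcf1-/-Lef1-/- mice in which CD4-Cre had removed both factors, and the controls (WT CD8) from wild-type mice. Both groups were mature thymocytes sorted as TCRβ high, CD69-, CD24- and CD8+. CD4-Cre acts from around the CD4+CD8+ stage of the thymus, so the model holds cells that had both factors earlier in development; the deletion itself was not checked in these data. The same cells were profiled for H3K9ac, H3K4me3 and H3K27me3, and wild-type CD4 thymocytes (WT CD4) for all 4 marks. Binding of Tcf1 was mapped in splenic CD8 cells of wild-type mice, a different tissue. The phenotype label of the WT CD4 samples names CD8 cells, and their titles were followed.

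H3K27ac is deposited mainly by the acetyltransferases p300 and CBP and is found at active promoters and enhancers. H3K9ac also marks active chromatin, H3K4me3 is typical of promoters, and H3K27me3 is laid down by Polycomb repressive complex 2 on the same lysine, so that a single histone tail cannot carry it together with H3K27ac. Tcf1 and Lef1 are related HMG-box proteins that bind DNA in T cells and act in the choice between the CD4 and CD8 lineages. The comparison asks where H3K27ac differs in CD8 thymocytes that have lost both.

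Each cell group had 1 H3K27ac library, so nothing here has a replicate check and there are no p-values. The 95% intervals are exact Clopper-Pearson intervals and cover counting error only. Reads are known only inside a library's own islands. A region called in 1 library therefore has an unknown number of reads in the other, and no fold is given for it. All positions are in the mm9 build. Genes and sequences at these positions were not analysed here.

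The WT CD8 H3K27ac library stood apart from the other H3K27ac libraries. Islands of the 3 H3K27ac libraries held 1959297 reads over 59.1 Mb in DKO CD8, 2056894 reads over 83.5 Mb in WT CD8 and 2505720 reads over 64.2 Mb in WT CD4. Of the length covered by H3K27ac islands, 9.91% in DKO CD8 also lay in H3K27me3 islands of the same cells, against 42.7% in WT CD8, while the share in WT CD4 was 9.90%. H3K4me3 islands had 11.8% of their length in own H3K27me3 in DKO CD8, 34.8% in WT CD8 and 18.5% in WT CD4. H3K9ac islands had 11.3% in DKO CD8, 16.6% in WT CD8 and 15.6% in WT CD4, so that for this mark WT CD8 lay close to WT CD4. Why the WT CD8 library overlaps H3K27me3 this much was not tested. The sharing of the strongest islands, the counts of regions by class, the counts of higher and lower regions, the medians by H3K4me3 class and Tcf1 peak, and the single-group regions with a second mark are also given without islands or regions that had H3K27me3, a choice made after seeing the data. All other values include them.

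The strongest H3K27ac islands of the deficient cells were nearly all present in wild-type cells, and the reverse did not hold. Of the 1000 DKO CD8 islands with the most reads, 98.6% (97.7 to 99.2) touched a WT CD8 island. Of the 1000 WT CD8 islands with the most reads, 24.3% (21.7 to 27.1) touched a DKO CD8 island. Going down the list, the share in DKO CD8 was 93.3% for the strongest 5000 islands, 78.8% for 10000 and 37.9% for the whole list. In WT CD8 it was 63.0% (52.8 to 72.4) for the strongest 100, 26.7% for 5000 and 21.0% for the whole list. Strength and sharing thus went together in the DKO CD8 list, while in the WT CD8 list the share stayed between 21.0% and 27.4% from the strongest 1000 islands down.

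The marks on these strongest islands also differed. Own H3K9ac islands touched 80.9% of the strongest 1000 H3K27ac islands in DKO CD8 and 21.6% in WT CD8. Own H3K4me3 touched 75.2% in DKO CD8 and 80.6% in WT CD8. Own H3K27me3, the silencing mark, touched 20.2% in DKO CD8 and 79.7% in WT CD8. An H3K27ac island of WT CD4, the third H3K27ac library, touched 99.1% of the strongest 1000 in DKO CD8 and 23.6% in WT CD8. Ranking by reads per kb in place of reads gave 97.3% of the top 1000 DKO CD8 islands in WT CD8 and 28.6% of the top 1000 WT CD8 islands in DKO CD8, with own H3K27me3 at 17.1% of these islands in DKO CD8 and 33.9% in WT CD8. Sharing of the top WT CD8 islands was thus low in this ranking too, where fewer of them touched H3K27me3. This ranking also took in weak islands. Its top 1000 went down to 20 reads in DKO CD8 and 12 in WT CD8, where the ranking by reads went down to 254 and 156. The part of weak islands in the low sharing was not tested.

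Leaving out islands that touched H3K27me3 of the same cells changed the ranking by reads for wild-type cells. Of the 25602 DKO CD8 islands left, the strongest 1000 touched a WT CD8 island in 98.8% of cases (97.9 to 99.4). Of the 38014 WT CD8 islands left, the strongest 1000 touched a DKO CD8 island in 81.3% (78.7 to 83.7), and the strongest 5000 in 62.9%. Own H3K9ac then touched 78.5% of the strongest 1000 in DKO CD8 and 54.0% in WT CD8, and WT CD4 H3K27ac touched 99.6% in DKO CD8 and 82.4% in WT CD8.

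**Figure D1:**
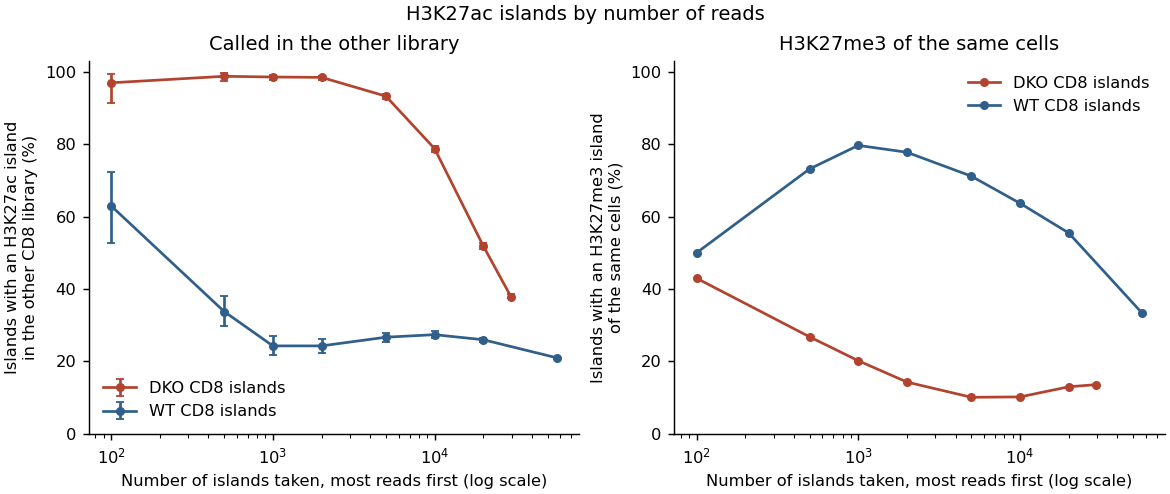
Left, percent of H3K27ac islands that touch an H3K27ac island of the other CD8 group, against the number of islands taken in order of reads (log scale), with 95% exact intervals for counting error; right, percent that touch an H3K27me3 island of the same cells. DKO CD8 islands start at 97.0% on the left and WT CD8 islands at 63.0%, and on the right WT CD8 islands reach 79.7% at 1000 islands where DKO CD8 islands are at 20.2%.

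Sharing by width also differed between the lists. DKO CD8 islands had a median width of 1600 bp and WT CD8 islands of 1200 bp. Among DKO CD8 islands the share also called in WT CD8 climbed with width, with 15.4% up to 600 bp, 40.6% over 1600 and up to 2400 bp, 78.0% over 4000 and up to 8000 bp, and 96.7% of the 271 islands above 8000 bp. Among WT CD8 islands it was 14.1%, 24.0%, 17.0% and 41.3% in the same bins, the last holding 126 islands. Own H3K27me3 touched 13.1% of the DKO CD8 islands over 4000 and up to 8000 bp and 81.8% of the WT CD8 islands of that width. Wide H3K27ac islands in wild-type cells therefore mostly touched H3K27me3 islands, and those in deficient cells mostly did not.

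By class, 18397 regions were called in DKO CD8 alone, 11068 (14.9%) in both groups and 45027 in WT CD8 alone. The shared regions held 68.8% of all H3K27ac island reads of DKO CD8 and 25% of those of WT CD8. Regions of DKO CD8 alone were 1400 bp wide in the median (quartiles 1000 and 2000), shared ones 2400 bp (1600 and 3400) and those of WT CD8 alone 1200 bp (600 and 1800). Read density within islands had a median of 39.0 reads per kb in DKO CD8 and 24.5 in WT CD8 at shared regions. It was 18.8 reads per kb in regions of DKO CD8 alone, below the DKO CD8 density at shared regions, and 23.3 in regions of WT CD8 alone, close to the WT CD8 density at shared ones. Without H3K27me3 regions, 15418 regions of DKO CD8 alone, 9289 shared regions and 25641 of WT CD8 alone were left.

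The other marks separated the classes further. Shared regions carried H3K4me3 in 52.9% of cases in DKO CD8 and 53.7% in WT CD8, and H3K9ac in 37.5% in DKO CD8 and 33.8% in WT CD8. Regions of DKO CD8 alone had H3K4me3 in 10.7% in DKO CD8 and 12.2% in WT CD8, and H3K9ac in 3.33% in DKO CD8 and 4.28% in WT CD8. The lists behind these shares differ in size, with 23411 H3K4me3 and 6516 H3K9ac islands in DKO CD8 against 42013 and 9860 in WT CD8. The shares also depend on which H3K27ac islands are taken. With islands above the median reads of their list alone, regions of DKO CD8 alone had own H3K4me3 in 32.6% and own H3K9ac in 13.8%. This filter removes weaker islands from both lists. A region counted as DKO CD8 alone under it can thus have a weaker WT CD8 island, and be a shared region in the full lists. Regions of WT CD8 alone had H3K4me3 in 5.65% in DKO CD8 and 19.4% in WT CD8, and H3K27me3 in 8.29% in DKO CD8 and 40.2% in WT CD8. H3K27me3 at regions of DKO CD8 alone was at 14.3% in DKO CD8 and 9.21% in WT CD8.

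**Figure D2:**
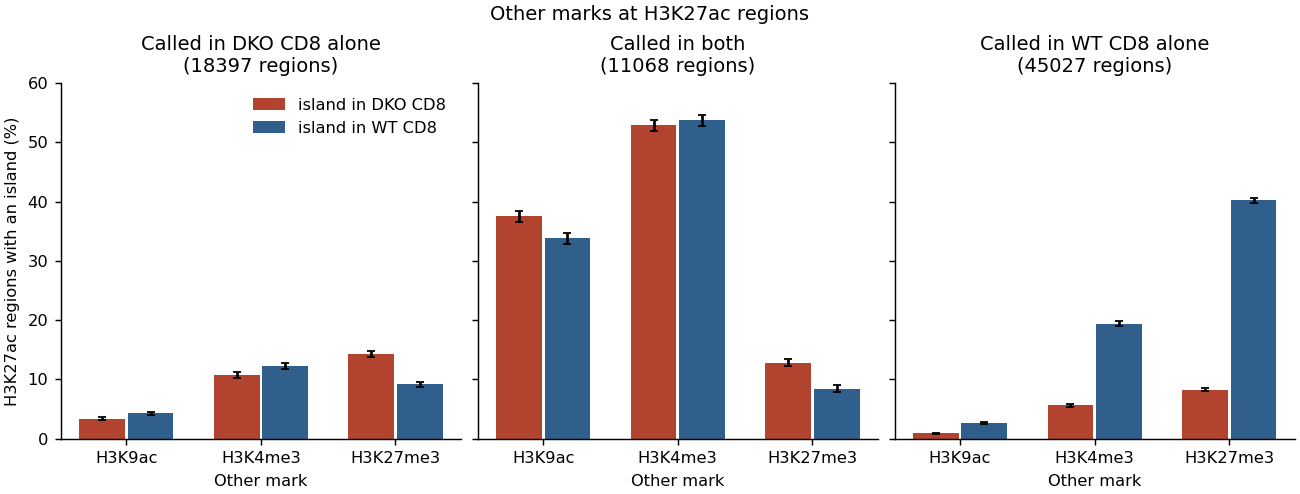
Percent of H3K27ac regions with an island of H3K9ac, H3K4me3 or H3K27me3 in DKO CD8 (left bar of each pair) and WT CD8 (right bar), for regions called in DKO CD8 alone, in both and in WT CD8 alone; error bars are 95% exact intervals for counting error. The pair that stands out is H3K27me3 in regions of WT CD8 alone, at 8.29% in DKO CD8 and 40.2% in WT CD8.

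The regions of WT CD8 alone differed in reads and width by whether they had H3K27me3. The 18092 with a WT CD8 H3K27me3 island had a median of 38 H3K27ac reads, a median width of 1600 bp and a median density of 24.4 reads per kb, and 36.4% also had WT CD8 H3K4me3. The 26935 without it had medians of 17 reads, 1000 bp and 21.7 reads per kb, and 7.99% had H3K4me3. The sets thus differed more in reads and width than in density. The set with H3K27me3 made up 45.7% of all WT CD8 H3K27ac island reads. Across it, H3K27ac reads of the region and reads of the whole H3K27me3 islands touching it went together (Spearman's rho 0.53 over 18092 regions). The regions share the cells, and 1 wide H3K27me3 island can count at several of them. Both counts can also grow with region width. In regions of DKO CD8 alone, the 2627 with DKO CD8 H3K27me3 and the 15770 without both had a median of 25 reads, and rho within the first set was -0.02.

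Regions of DKO CD8 alone divided instead by whether WT CD4 had H3K27ac there. The 7336 that did had a median of 36 reads, with DKO CD8 H3K4me3 in 21.4% and a Tcf1 peak in 14.7%. The 11061 that did not had a median of 22 reads, with H3K4me3 in 3.63% and a Tcf1 peak in 1.29%. WT CD8 H3K4me3 was present in 23.2% of the set with WT CD4 H3K27ac and 4.88% of the set without, so wild-type CD8 cells carried H3K4me3 at these places about as often as deficient cells did. The share of regions with WT CD4 H3K27ac was 39.9% for DKO CD8 alone and 3.64% for WT CD8 alone. With islands above the median reads of their list alone, these shares were 83.0% and 4.18%. Regions counted as alone under that filter can have a weaker island of the other CD8 group, so the 83.0% does not describe a subset of the 7336 and 11061 regions.

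Distance to the nearest shared region also differed between the classes. Its median was 30.8 kb for regions of DKO CD8 alone and 208.2 kb for those of WT CD8 alone. Within 10 kb of a shared region lay 25.2% of the regions of DKO CD8 alone and 6.74% of those of WT CD8 alone. Regions of WT CD8 alone with WT CD8 H3K27me3 lay at a median of 275.4 kb and those without at 169.0 kb. The 1640 regions of WT CD8 alone that WT CD4 also had lay at 29.4 kb. Regions of DKO CD8 alone lay at 22.0 kb where WT CD4 also had H3K27ac and at 38.6 kb where it did not.

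At the 11068 shared regions the islands of the deficient cells were longer and held more reads. The DKO CD8 island was the longer in 8520 regions (77.0%) and the WT CD8 island in 1769 (16.0%), with medians of 2000 bp in DKO CD8 and 1400 bp in WT CD8. DKO CD8 islands spanned a median of 100% of the region and WT CD8 islands 62.5%. More than 1 island lay in 161 regions for DKO CD8 and in 760 for WT CD8. Reads had medians of 88 in DKO CD8 and 31 in WT CD8, and the median ratio of reads per region was 2.72-fold, a log2 ratio of 1.44. Total island reads of the libraries were nearly equal (log2 -0.07).

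Read ratios were therefore centred: the log2 of DKO CD8 over WT CD8 island reads is given relative to its median over all shared regions, and a value of 0 stands for that median and not for equal reads. On this scale the DKO CD8 value was higher by 2-fold or more at 894 regions (8.08%) and lower by 2-fold or more at 1681 (15.2%). Scaled by total island reads instead, 7991 (72.2%) were at least 2-fold higher and 197 (1.78%) at least 2-fold lower, since this scale moves every ratio up together. Directions below are relative to the median of shared regions, and "higher" and "lower" hold on that scale only. Without H3K27me3 regions, and centred anew, 681 regions were higher in DKO CD8 by 2-fold or more and 1155 were lower. With reads divided by island length, 953 were higher and 1151 lower, so that most of the excess of lower regions was not seen on that measure.

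Higher and lower regions differed in the marks they carried. Of the 894 higher regions, 58.5% had H3K4me3 in both CD8 groups and 26.7% in neither. Of the 1681 lower regions, 16.1% had H3K4me3 in both and 62.3% in neither. H3K9ac was present in both groups at 33.4% of higher and 3.09% of lower regions. H3K27me3 was present in neither group at 88.9% of the higher regions and 63.2% of the lower ones, and in WT CD8 only at 1.45% of the higher and 14.0% of the lower. Of all 11068 shared regions, 45.0% had H3K4me3 in both groups and 38.4% in neither, and 23.7% had H3K9ac in both. H3K27me3 was in neither group at 83.9% and in WT CD8 only at 3.28%. For H3K27me3 the higher regions thus lay near all shared regions, and the lower ones stood apart.

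Ordered by the ratio and divided into 10 steps of equal size, the shared regions showed gradual changes in these marks. WT CD8 H3K27me3 touched 36.6% of step 1, which holds the lowest ratios, and 3.25% of step 10, which holds the highest. DKO CD8 H3K4me3 touched 25% of the regions of step 1, 72.0% of step 8 and 66.8% of step 10. DKO CD8 H3K9ac touched 9.67% of step 1 and 53.7% of step 10. WT CD4 had H3K27ac at 58.7% of step 1 and 99.1% of step 10. The share of the region that WT CD8 islands spanned moved with the ratio as well, with a median of 94.4% in step 1 and 31.9% in step 10; where each library spanned at least 50% of the region, the order of the classes below was the same, with medians of 0.30 (H3K4me3 in both groups) and -0.49 (in neither).

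**Figure D3:**
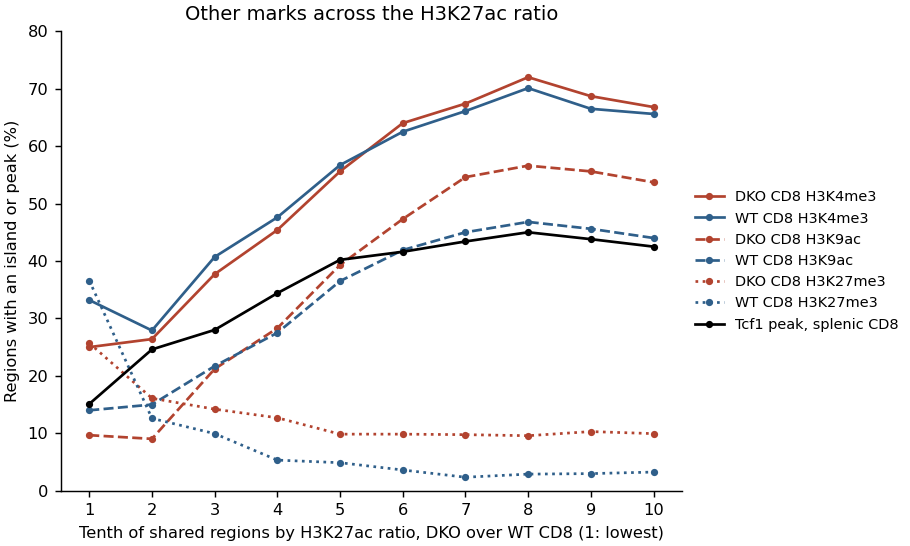
Percent of shared H3K27ac regions with an island of each other mark in DKO CD8 or WT CD8, or with a Tcf1 peak of splenic CD8 cells, in 10 equal steps of the centred H3K27ac ratio from lowest (1) to highest (10). H3K4me3, H3K9ac and Tcf1 peaks climb to step 8 and then level off, while WT CD8 H3K27me3 is at 36.6% in step 1 and 3.25% in step 10.

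Promoter-like and distal regions stood on opposite sides of the median. The 4978 shared regions with H3K4me3 in both CD8 groups, which resemble promoters, had a median centred log2 ratio of 0.25 (quartiles -0.17 and 0.62). The 4248 with H3K4me3 in neither, called distal here without a check of the distance to genes, had a median of -0.37 (-0.98 and 0.21), or 1.14 when scaled by total island reads, where the promoter-like regions were at 1.76. Regions with H3K4me3 in DKO CD8 only had a median of 0.08 over 877 regions, and those with it in WT CD8 only -0.23 over 965. At least 2-fold higher in DKO CD8 were 10.5% of the promoter-like and 5.63% of the distal regions, and at least 2-fold lower were 5.42% and 24.7% of them, beside 8.08% and 15.2% of all shared regions. Without H3K27me3 regions, and centred anew, the medians were 0.22 for promoter-like and -0.35 for distal regions. On the scale of all shared regions they were 0.28 and -0.3 in the same order.

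The distal difference was largest in narrow regions. In the distal class the median centred log2 ratio was -0.84 up to 1600 bp, -0.58 over 1600 and up to 2000 bp, -0.41 up to 2600 bp, -0.21 up to 3800 bp and 0.11 above that. In the promoter-like class it ranged only from 0.13 to 0.36 over the same widths. The narrow distal regions were weak, with median reads of 27 in DKO CD8 and 18 in WT CD8, near the lowest island counts of the lists, 11 in DKO CD8 and 10 in WT CD8. The widest distal regions had medians of 140 reads in DKO CD8 and 50 in WT CD8. A shared region must pass the calling minimum in both libraries, and the part of that limit in the ratio of weak regions was not tested. When 1 of the libraries had to reach 50 reads, after WT CD8 reads were multiplied by the median ratio, the distal median was -0.38.

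H3K27me3 set apart the lowest ratios. The 363 shared regions with H3K27me3 in WT CD8 only had a median centred log2 ratio of -1.59 (quartiles -2.49 and -0.56), and 64.7% were at least 2-fold lower in DKO CD8. The 572 with H3K27me3 in both groups had a median of -0.80, with 43.7% lower. The 9289 without it in either group had a median of 0.06, with 11.4% lower. The 844 with H3K27me3 in DKO CD8 only had a median of 0.05, which became -0.25 once regions with islands in at least 10 of the 12 histone libraries were left out. Ratios were thus lowest where H3K27me3 was present in wild-type cells. The order held inside the H3K4me3 classes: with H3K27me3 in WT CD8 only, promoter-like regions had a median of -1.61 over 96 regions and distal ones -1.16 over 143.

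**Figure D4:**
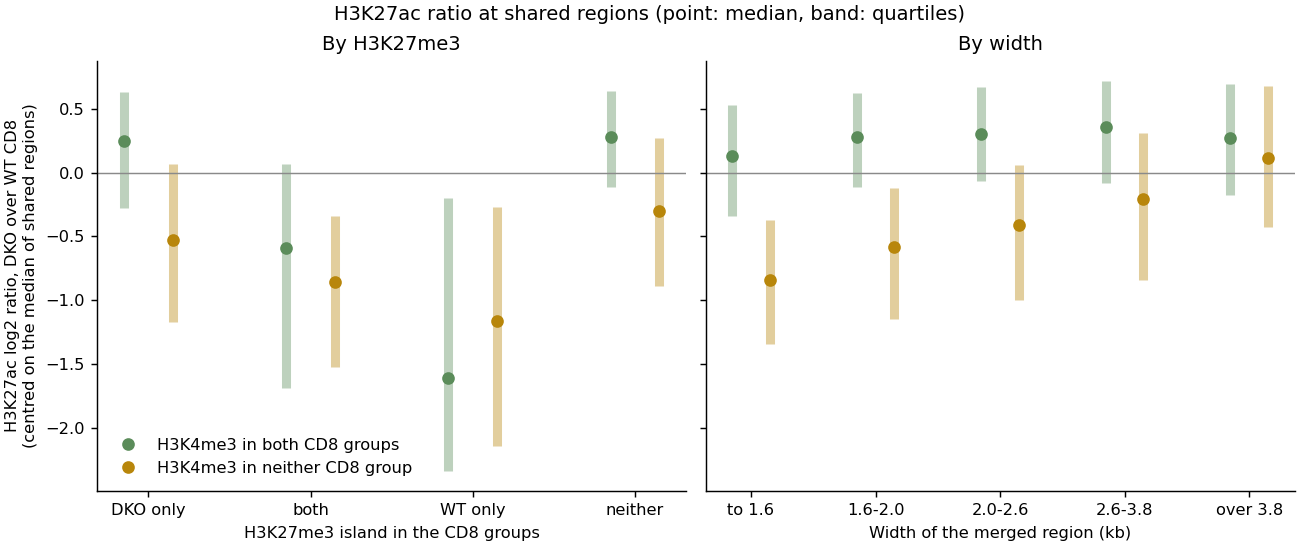
Median (point) and quartiles (band) of the centred log2 ratio of H3K27ac reads, DKO CD8 over WT CD8, at shared regions with H3K4me3 in both CD8 groups (green) or in neither (brown), by H3K27me3 class on the left and by region width on the right. Regions with H3K27me3 in WT CD8 only are lowest, at -1.61 and -1.16, and the distal medians climb with width from -0.84 to 0.11.

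H3K9ac and Tcf1 peaks marked the regions with higher ratios. With H3K9ac in both CD8 groups the median centred log2 ratio was 0.34 over 2628 regions, with H3K9ac in DKO CD8 only 0.27 over 1527, in WT CD8 only -0.08 over 1113, and in neither -0.31 over 5800. The 3967 shared regions with a Tcf1 peak had a median of 0.18, and the 7101 without had -0.12. This gap was also present inside the H3K4me3 classes, at 0.32 with and 0.18 without a peak in promoter-like regions, and at -0.18 with and -0.44 without in distal ones. Regions with a peak also had more reads, with medians of 128 in DKO CD8 and 41 in WT CD8, where those without had 70 in DKO CD8 and 28 in WT CD8. Without H3K27me3 regions, but still centred on all shared regions, the medians with and without a peak were 0.33 and 0.24 in promoter-like and -0.19 and -0.35 in distal regions. Regions with a Tcf1 peak thus lay above the median of shared regions when pooled or promoter-like, and the 1215 distal ones below it.

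The ratio of H3K27ac between the groups was followed only weakly by the ratios of the active marks. Where both groups had the other mark, the H3K27ac ratio and the ratio of that mark had a Spearman's rho of 0.16 for H3K9ac over 2628 regions, 0.10 for H3K4me3 over 4978 and 0.40 for H3K27me3 over 572. These points are regions of the same pairs of cell samples. Reads of the other mark are those of whole islands that touch the region, also where an island reaches beyond it. A wide island, as H3K27me3 often has, can therefore count at several regions. A wider region can also touch more islands. At the 52 regions with H3K27ac at least 2-fold lower, the H3K9ac ratio, centred on its own median, was -0.41 in the median, and at the 299 with H3K27ac at least 2-fold higher it was 0.08. For H3K4me3 these medians were -0.43 over 270 lower regions and 0.02 over 523 higher ones. For H3K27me3 the median, relative to its own, was -0.77 at the 250 regions with lower H3K27ac. Before centring, the median log2 ratio of DKO CD8 over WT CD8 reads was 0.80 for H3K9ac, 0.13 for H3K4me3 and 1.56 (2.94-fold) for H3K27me3, so these directions hold relative to each mark's median only.

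Few regions passed 2-fold in 2 marks, each centred on its own median, again with whole-island reads of the other mark. For H3K27ac and H3K9ac there were 31, of which 13 were higher in both marks and 8 lower in both. For H3K27ac and H3K4me3 there were 132, with 31 higher in both and 69 lower in both. For H3K27ac and H3K27me3 there were 142, with 116 lower in both and 22 lower in H3K27ac but higher in H3K27me3. On this scale the direction of H3K27ac and H3K27me3, marks of the same lysine, was mostly the same.

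A stricter set was formed from shared regions where 1 library had at least 100 reads, with islands of each library over at least 50% of the region, and islands in fewer than 10 of the 12 histone libraries. Of its 3103 regions, 174 (5.61%) were higher in DKO CD8 by 2-fold or more and 157 (5.06%) were lower. The minimum of 100 was on uncentred reads, which over all shared regions had medians of 88 in DKO CD8 and 31 in WT CD8. Lower regions thus passed it less easily than higher ones, and the part of this filter in the counts and shares given here was not tested. H3K4me3 was present in both CD8 groups at 81.6% of the higher and 28.7% of the lower regions, a Tcf1 peak at 53.4% of the higher and 31.8% of the lower, and WT CD8 H3K27me3 at 1.15% of the higher and 36.9% of the lower. WT CD4 had H3K27ac at 100% of the higher and 87.9% of the lower regions. Shares over the 3103 regions are not given here. Over all 11068 shared regions, H3K4me3 was in both CD8 groups at 45.0%, a Tcf1 peak at 35.8% and WT CD8 H3K27me3 at 8.45%. WT CD4 had H3K27ac at 90.9% of them, so this mark set neither direction far apart.

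The region with the largest ratio of this set lay on chromosome 5, 108146001 to 108149400. It had 556 H3K27ac reads in DKO CD8 and 41 in WT CD8 (centred log2 ratio 2.32, interval 1.86 to 2.81), with 665 in WT CD4. WT CD8 had no H3K4me3 island there, while those of DKO CD8 held 24 reads and those of WT CD4 held 244. A DKO CD8 H3K27me3 island of 261 reads touched the region too, with none in WT CD8 or WT CD4. Its neighbour 600 bp away, 108150001 to 108151000, was the strongest region of DKO CD8 alone that had H3K4me3 in DKO CD8 and not in WT CD8, among those with islands in fewer than 10 libraries. That neighbour had 756 H3K27ac reads in DKO CD8, no island in WT CD8 and 565 reads in WT CD4.

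Next in order were 4 regions of promoter type, with H3K4me3 in both CD8 groups and no H3K27me3 island in either. On chromosome 8, 67470001 to 67472000, H3K27ac had 204 reads in DKO CD8 and 21 in WT CD8 (1.84, interval 1.19 to 2.56), and H3K9ac had 27 reads in DKO CD8 and no island in WT CD8. On chromosome 3, 130411601 to 130412800, it had 144 reads in DKO CD8 and 16 in WT CD8 (1.73), again with H3K9ac in DKO CD8 (28 reads) and none called in WT CD8. The others, on chromosome 13, 48640601 to 48642800 (215 reads in DKO CD8 and 24 in WT CD8, 1.72), and chromosome 9, 51855401 to 51857200 (178 in DKO CD8 and 20 in WT CD8, 1.71), had H3K9ac in both groups. At these 4 regions H3K4me3 islands held 33 to 51 reads in DKO CD8 and 20 to 35 in WT CD8, and WT CD4 had H3K27ac at each.

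Among regions with H3K4me3 in DKO CD8 only, the second largest ratio was on chromosome 17, 51962601 to 51968400, a wide region of 5.8 kb with a Tcf1 peak. H3K27ac had 342 reads in DKO CD8, 40 in WT CD8 and 308 in WT CD4 (centred log2 ratio 1.65, interval 1.18 to 2.16). H3K9ac had 168 reads in DKO CD8, no island in WT CD8 and 16 reads in WT CD4. Among regions with H3K4me3 in WT CD8 only, a 9.0 kb region with a Tcf1 peak on chromosome 1, 135955801 to 135964800, had 720 H3K27ac reads in DKO CD8 and 115 in WT CD8 (1.20, interval 0.92 to 1.5), and H3K9ac of 98 reads in DKO CD8 with none called in WT CD8. These 2 regions were picked from the leaders of their classes after their values were seen, and others of those leaders differed in H3K9ac. On chromosome 5, 76568401 to 76570600 (H3K4me3 in WT CD8 only, 164 H3K27ac reads in DKO CD8 and 25 in WT CD8, 1.27), H3K9ac had 23 reads in DKO CD8 and 34 in WT CD8. On chromosome 6, 149257801 to 149258600 (H3K4me3 in DKO CD8 only, 165 H3K27ac reads in DKO CD8 and 20 in WT CD8, 1.6), it had 43 reads in DKO CD8 and 21 in WT CD8. Among distal regions, chromosome 18, 13130401 to 13133200, led with 270 reads in DKO CD8 and 42 in WT CD8 (1.24, interval 0.77 to 1.75) and had no other mark in either CD8 group.

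The lowest ratio of the stricter set was on chromosome 14, 27506801 to 27508200, with 38 H3K27ac reads in DKO CD8 and 188 in WT CD8 (centred log2 ratio -3.75, interval -4.29 to -3.24). H3K27me3 islands there held 91 reads in DKO CD8 and 137 in WT CD8, and WT CD4 had no H3K27ac island. H3K9ac was called there in DKO CD8 (28 reads) and not in WT CD8. Regions on chromosome 8, 26985601 to 26989000 (31 reads in DKO CD8 and 108 in WT CD8, -3.24), and chromosome 5, 116259401 to 116261200 (54 in DKO CD8 and 188 in WT CD8, -3.24), likewise had H3K27me3 in both CD8 groups and no WT CD4 H3K27ac. H3K9ac had 51 reads in DKO CD8 and no island in WT CD8 at the region on chromosome 8, and no island in either CD8 group at that on chromosome 5.

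Other low regions, 2 of the 5 lowest and the third lowest of the distal class, had no WT CD8 H3K27me3 island. On chromosome 18, 56626601 to 56632200, H3K27ac had 60 reads in DKO CD8, 227 in WT CD8 and 684 in WT CD4 (centred log2 ratio -3.36, interval -3.8 to -2.95), and a Tcf1 peak lay in it. H3K9ac (83 reads) and H3K4me3 (54 reads) were called there in WT CD8 and not in DKO CD8, while H3K27me3 was called in DKO CD8 (69 reads) and not in WT CD8. The 3 active marks thus differed the same way there, and H3K27me3 the opposite way. On chromosome 15, 36323601 to 36328000, with 2 Tcf1 peaks, H3K27ac had 32 reads in DKO CD8, 126 in WT CD8 and 160 in WT CD4 (-3.42, interval -4.03 to -2.85) and was the only mark called in any group. On chromosome 11, 99031201 to 99033800, with 1 Tcf1 peak, it had 40 reads in DKO CD8, 129 in WT CD8 and 1099 in WT CD4 (-3.13, interval -3.68 to -2.61), and H3K9ac was called in WT CD8 (25 reads) and not in DKO CD8.

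Several of the widest and strongest regions were called in at least 10 of the 12 histone libraries. The widest, on chromosome 8, 126061201 to 126148400, spanned 87.2 kb, had islands in 10 of them and held 1806 H3K27ac reads in DKO CD8 and 5600 in WT CD8 (centred log2 ratio -3.07). A 24.2 kb region on chromosome 11, 52077201 to 52101400, with 5 Tcf1 peaks, held 3238 H3K27ac reads in DKO CD8, 787 in WT CD8 and 3194 in WT CD4 (0.60, interval 0.49 to 0.71). Its H3K9ac islands held 1034 reads in DKO CD8 and 334 in WT CD8. A 79.2 kb region on chromosome 11, 3021001 to 3100200, with islands in 11 libraries, held 13581 H3K27ac reads in DKO CD8 and had no H3K27ac island in WT CD8. Others were in few libraries. A 1.4 kb region on chromosome 2, 98506201 to 98507600, with islands in 3 libraries, had no H3K27ac island in DKO CD8 and 7411 reads in WT CD8. The other 2 islands were H3K27me3 in WT CD8 (15262 reads) and H3K4me3 in DKO CD8 (8885 reads). DKO CD8 thus had a strong signal of another mark at this place. A 41.4 kb region on chromosome 6, 47687001 to 47728400, with islands in 5 libraries, 7 Tcf1 peaks and WT CD8 H3K27me3, held 2747 reads in DKO CD8, 3290 in WT CD8 and 4009 in WT CD4 (-1.70, interval -1.78 to -1.63).

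Regions of 1 group alone were then searched for a second active mark that followed H3K27ac. In DKO CD8 alone, 1271 regions (6.91%) had H3K9ac or H3K4me3 in DKO CD8 with none of that mark in WT CD8, 62 of them both marks. In WT CD8 alone, 8287 regions (18.4%) had the like in WT CD8, 527 of them both. The opposite pattern was counted as well. Among regions of DKO CD8 alone, H3K9ac was called in DKO CD8 only at 479 and in WT CD8 only at 654, and H3K4me3 in DKO CD8 only at 856 and in WT CD8 only at 1127. Among regions of WT CD8 alone, H3K9ac was called in DKO CD8 only at 395 and in WT CD8 only at 1152, and H3K4me3 in DKO CD8 only at 1462 and in WT CD8 only at 7663. Where 1 CD8 group alone had the mark it was thus more often WT CD8, in each class. This was also so over all sites of these marks, whether or not H3K27ac was there. H3K9ac had 3702 sites found only in DKO CD8 against 6988 found only in WT CD8. For H3K4me3 these counts were 15700 and 34210. In proportion, the excess of WT CD8 was smaller in regions of DKO CD8 alone than over all sites. It was larger in regions of WT CD8 alone. Leaving out regions with own H3K27me3 left 1014 of the 1271 DKO CD8-alone regions and 2256 of the 8287 WT CD8-alone regions.

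Examples of such regions of DKO CD8 alone were chromosome 7, 71218201 to 71236000, an island of 17.8 kb with 537 H3K27ac reads, 15 H3K4me3 reads and a Tcf1 peak but an H3K9ac island in WT CD8 (68 reads) and none in DKO CD8, and chromosome 7, 26062401 to 26068400, with 260 H3K27ac and 60 H3K9ac reads and a Tcf1 peak. WT CD4 had H3K27ac at both, with 428 reads at the wider and 308 at the narrower. Examples of WT CD8 alone were chromosome 7, 67002201 to 67050400, an island of 48.2 kb with 3054 H3K27ac, 2420 H3K9ac and 4348 H3K27me3 reads, and chromosome X, 166422801 to 166447000, of 24.2 kb with 1847 H3K27ac and 1387 H3K4me3 reads. At the 48.2 kb region H3K4me3 was called in both CD8 groups, with 3213 reads in DKO CD8 and 3097 in WT CD8. WT CD4 had no H3K27ac island at the 48.2 kb region and 2807 H3K27ac reads at that on chromosome X. Reads of a mark are those of its whole island where the island reaches beyond the region.

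Seen from sites that other libraries define, H3K27ac was present at nearly all sites with H3K9ac in both CD8 groups. Of these 2810 sites, 98.0% (97.4 to 98.5) had H3K27ac in DKO CD8 and 94.2% (93.2 to 95) in WT CD8. Of 3702 sites with H3K9ac in DKO CD8 alone, 499 had H3K27ac in DKO CD8 alone, 1562 in both and 390 in WT CD8 alone. Of 6988 sites with H3K9ac in WT CD8 alone, 721 had H3K27ac in DKO CD8 alone, 1107 in both and 1151 in WT CD8 alone. The group with H3K9ac was thus the one that more often had H3K27ac alone, in each direction, although most of these sites had H3K27ac in both or in neither. With lists of equal covered length the order turned at H3K9ac sites of WT CD8 alone, where 956 then had H3K27ac of DKO CD8 alone and 896 that of WT CD8 alone. At the sites with H3K9ac in both groups, H3K27ac of DKO CD8 alone was at 135, at 305 with equal covered length and at 444 with islands above the median reads of their list. The median filter, here and below, also removes weaker islands of the other group, so sites can pass from both to alone.

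H3K4me3 sites of both groups, 7608 in all, had H3K27ac in DKO CD8 alone at 1159, in both at 4939 and in WT CD8 alone at 939. The gap depended on the lists: DKO CD8 alone had it at 1738 sites and WT CD8 alone at 836 with equal covered length, and at 2024 and 885 sites in the same order with islands above the median reads. WT CD4 had H3K27ac at 94.8% of the DKO CD8-alone sites and 3.94% of the WT CD8-alone sites. Promoter-type sites with H3K27ac in WT CD8 alone were therefore seldom acetylated in the other wild-type library. At the 23304 sites with H3K27me3 in WT CD8 alone, H3K27ac was found in DKO CD8 alone at 274, in both at 330 and in WT CD8 alone at 13746 (59.0%).

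Tcf1 peaks of splenic CD8 cells numbered 7807, of which 1681 lay in H3K27ac of DKO CD8 alone, 4155 in both and 204 in WT CD8 alone. With equal covered length H3K27ac of DKO CD8 alone held 2341 peaks and that of WT CD8 alone 122. With islands above the median reads, the counts were 1986 for DKO CD8 alone and 184 for WT CD8 alone. Peaks with H3K4me3 in both CD8 groups nearly all had H3K27ac, with 284 of 2196 in DKO CD8 alone, 1900 in both and 1 in WT CD8 alone. Peaks without H3K4me3 in either group more often lacked it, with 1687 of 4541 outside H3K27ac of both groups, 1095 in DKO CD8 alone, 1569 in both and 190 in WT CD8 alone. With peaks split into 4 equal sets by the authors' score, H3K27ac of DKO CD8 touched, in order from the lowest scores to the highest, 67.4%, 74.0%, 80.2% and 77.4% of the peaks, and H3K27ac of WT CD8 touched 47.1%, 52.5%, 63.4% and 60.4%. The share was highest in set 3 in each group. Of the peaks in H3K27ac of DKO CD8 alone, 89.4% also had WT CD4 H3K27ac. In these libraries more Tcf1 peaks therefore had H3K27ac in DKO CD8 (74.8%) than in WT CD8 (55.8%).

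**Figure D5:**
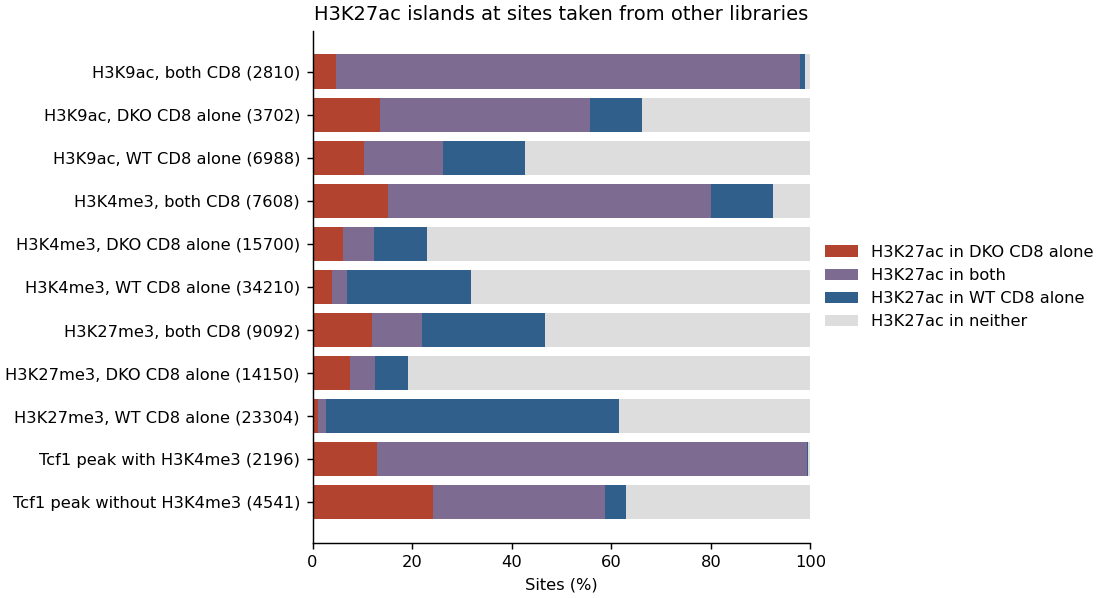
Percent of sites with H3K27ac in DKO CD8 alone, in both, in WT CD8 alone or in neither, for sites defined by H3K9ac, H3K4me3 or H3K27me3 islands of the CD8 groups and by Tcf1 peaks of splenic CD8 cells; the number of sites is in brackets. H3K27ac of both groups fills 93.2% of H3K9ac sites of both groups and 86.5% of Tcf1 peaks with H3K4me3, and H3K27ac of WT CD8 alone fills 59.0% of H3K27me3 sites of WT CD8 alone.

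Ratios of neighbouring shared regions were only loosely alike. Spearman's rho between a region and the next was 0.23 for 1183 pairs less than 5 kb apart, 0.12 for 1977 pairs from 5 to 20 kb, 0.10 for 4078 pairs from 20 to 100 kb and 0.06 for 3199 pairs from 100 to 1000 kb; neighbours share chromosome and libraries. Medians by chromosome ran from -0.08 on chromosome 10 to 0.10 on chromosome 16, with -0.07 on chromosome X. These medians span less than those of the chromatin classes above.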

How the data were processed

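ChIP-seq data of mouse thymocytes were used, 1 library per cell group and mark. Each deposited list of islands holds raw counts of reads, as whole numbers without normalization. The deposited Tcf1 peak list gives the authors' score per peak, which served only to order its peaks. The submitters' processing notes list the mm9 build and, without saying what each did, MACS 1.4.2, SICER 1.1, Bowtie2 2.2.5 and FastQC. The sources used here do not give library totals. Depth was therefore described by island reads, which depend on how much of each library was called. Some libraries were sequenced again for coverage, per the labels' protocols, which do not name them. The 3 inputs and the Tcf1-deficient control library were not analysed here.

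H3K27ac islands of DKO CD8 and WT CD8 were merged where they shared 1 bp, and the log2 ratio of their reads at shared regions was centred on its median. A region was counted as higher or lower from 2-fold. Other marks were taken as present where an island touched the region. Shares have exact Clopper-Pearson intervals at 95%, and ratios of single regions exact binomial ones conditional on the sum of both counts. Named regions were the 5 highest and the 5 lowest ratios of the stricter set, the 3 highest and lowest within each H3K4me3 class, the 5 strongest of each group alone with H3K9ac or H3K4me3 of the same group only, and the 3 widest and strongest per library; the text gives a part of them. Members, classes and rules were chosen with earlier results of these data known. The planned gene lists, cell type markers and gene names were not run, since no mm9 annotation was at hand. Alternatives are given in the closing section. Scripts ran on Python 3.11.15 with SciPy 1.17.1, pandas 2.3.3, numpy 2.4.6 and matplotlib 3.10.9; merging was checked against bedtools 2.31.1, and read ratios were tested on simulated data.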

Additional observations from a re-analysis of the deposited data

How the results depend on the processing

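No paired analysis was possible because each group had 1 library, and for the same reason no replicate could be left out. With islands above their list's median reads alone, 8020 regions of DKO CD8 alone, 6469 shared regions and 21135 of WT CD8 alone were left, with 307 higher in DKO CD8 and 670 lower, medians of 0.16 (promoter-like) and -0.32 (distal), and own H3K27me3 at 12.8% of DKO CD8-alone and 64.3% of WT CD8-alone regions. Regions counted as alone under that filter can have a weaker island of the other CD8 group. Lists of equal covered length gave a promoter-like median of 0.18 and own H3K27me3 at 44.9% of WT CD8-alone regions, and autosomes alone 39.5%. A shared length of at least 50% gave a promoter-like median of 0.23, and reads per island bp 0.35. Requiring islands of each library over 50% of the region gave 392 higher and 997 lower, with medians of 0.30 and -0.49. Total island reads gave 7991 higher and 197 lower, with medians of 1.76 and 1.14; by construction this scale adds the same amount to every ratio, which turns the sign of the distal class. Alternatives chosen after seeing the data gave 25641 WT CD8-alone regions and a promoter-like median of 0.22 without H3K27me3 regions, 0.21 with at least 50 reads, and 519 higher, 933 lower, 0.22 and -0.23 for regions over 2000 bp. Without islands in own H3K27me3, also chosen after seeing the data, the share of the strongest 1000 WT CD8 islands found in DKO CD8 was 81.3% in place of 24.3%. Without regions in at least 10 of the 12 libraries, the median of regions with H3K27me3 in DKO CD8 only was -0.25. The cause of these shifts was not tested. Of the values that answer a comparison, 28 were counted as moved, 1 as reversed (the distal median scaled by total island reads) and 45 as the same. Among those 45 were 32582 WT CD8-alone regions with equal covered length and, with reads per island bp, 953 higher and 1151 lower. Library totals and reads outside islands are not known, so what depth limits was not tested.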
